A study of Mus musculus with 16 samples.

Results

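The comparison described here is that of muscle stem cells (MuSCs) lacking the telomere protein TRF2 with MuSCs of control mice, both taken from uninjured muscle. Its members are the 4 libraries labelled TRF2 knockout and uninjured and the 4 labelled wild type and uninjured, 8 of the 16 libraries of the series, chosen by their labels alone. The other 8 libraries, labelled with the same genotypes, were taken 3 days after muscle injury with notexin (3 DPI) and are used only where stated. Knockout mice carried floxed TRF2 alleles and the tamoxifen-inducible Cre recombinase Pax7-CreERT2, which is driven by Pax7 and thus acts in MuSCs, and they are called TRF2 MuSC-cKO in the paper. The mice, 8 to 10 weeks old when tamoxifen began, were injected 7 times, every other day. The labels call the controls wild type and the paper calls them control, and neither states for these libraries whether controls carried the Cre driver or received tamoxifen. The age at isolation and the sex of the mice were not given for these libraries. MuSCs were sorted from hindlimb muscle by flow cytometry as cells without blood, endothelial and Sca1 markers that carried α7-integrin together with VCAM or CD34. The series' design text calls the libraries of a group biological replicates, and does not say whether each came from 1 mouse. The JH numbers in the library descriptions, whose meaning is not given, are never shared between the genotypes in uninjured muscle. JH number and genotype therefore cannot be told apart here. The letters that follow, such as LU and LB, occur in both genotypes.

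TRF2 is a subunit of shelterin, the protein complex that covers the telomeric repeats at chromosome ends. It keeps chromosome ends from being read as DNA breaks, and in dividing cells its loss typically activates the ATM kinase and the transcription factor p53. MuSCs lie between the myofiber and its basement membrane. In uninjured adult muscle they are quiescent, carry the transcription factor Pax7, and depend on matrix proteins and adhesion receptors of this niche. p53 acts mostly as an activator, and its targets include an inhibitor of the cell cycle, inhibitors of growth signalling and inducers of cell death.

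Libraries were made from total RNA depleted of ribosomal RNA with random priming, so that reads fall along whole transcripts, and values are CPM, estimated counts scaled to the effective size of each library (TMM). Totals were 909445 to 1351095 estimated counts in control and 665757 to 976957 in TRF2 MuSC-cKO libraries. Single-gene values of a few CPM therefore rest on a few reads. Low and high genes moved apart between the genotypes. When the 14048 genes tested were put into 5 bins of equal size by mean CPM, the median log2 fold change was 0.40 in the bin of lowest CPM, then 0.29, 0.15 and -0.07, and -0.28 in the bin of highest CPM. The bin of highest CPM held 59.9% ± 2.25 of the counts of TRF2 MuSC-cKO and 67.3% ± 2.88 of those of control libraries (SD, n = 4 each). Receptor genes of smell, taste and pheromones, listed here as background receptor genes, took 0.215 to 0.444% of counts in control and 0.428 to 0.588% in TRF2 MuSC-cKO libraries. Main lists are given also after removal of this trend by level-dependent offsets, an alternative chosen after seeing the data. Of the 452 genes called in either direction, 183 were also called with the level trend removed, and with rescaled counts 16 of the 449 that were tested. Among the genes examined singly in each alternative, those described here that lost their calls with the level trend removed were Vcam1, Sdc4, Col3a1, Eef2, Fos, Eef1a1, Gnas, Dag1, Meg3, Cav1, Loxl1, Gpc1, Sulf2, Itgb1, Slit3, Sfrp5, Ltbp1, Dusp1, Atp5b, Atp5a1, Psmd3, Hnrnpk, Hnrnpa0, Cacna1b, Tsc22d3, Ctsa and Rgs5.

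In TRF2 MuSC-cKO MuSCs, 370 of 14048 tested genes passed as lower (2.63%) and 82 as higher (0.584%), together 452 (3.22%), with an adjusted p under 0.02 in edgeR's quasi-likelihood test and a fold change over 1.5. At an unadjusted p under 0.05, 1475 genes were lower (10.5%) and 1261 higher (8.98%). The median log2 fold change of all tested genes was 0.06. Called genes were unevenly spread over levels. The bin of highest CPM held 308 of the genes called lower and 26 of those called higher, and the bin of lowest CPM held 0 and 5. With the level trend removed, 138 genes were called lower and 118 higher, and 183 of the 452 called genes were called again in the same direction. Scaling by library size alone moved the median of all genes to 0.24 and gave 212 lower and 176 higher. All 452 genes kept their sign in both of these alternatives. The fit of all 16 libraries together called 70 lower and 12 higher, and the authors' abundance-rescaled counts gave 11 lower and 6 higher. Leaving out 1 library at a time gave 214 (without control replicate 1) to 488 (without control replicate 3) lower, and 40 (without control replicate 2) to 86 (without control replicate 3) higher. All 4 knockout libraries lay below all 4 control libraries in 933 genes (6.64%) and above them in 700 (4.98%), together 1633 (11.6%).

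**Figure D1:**
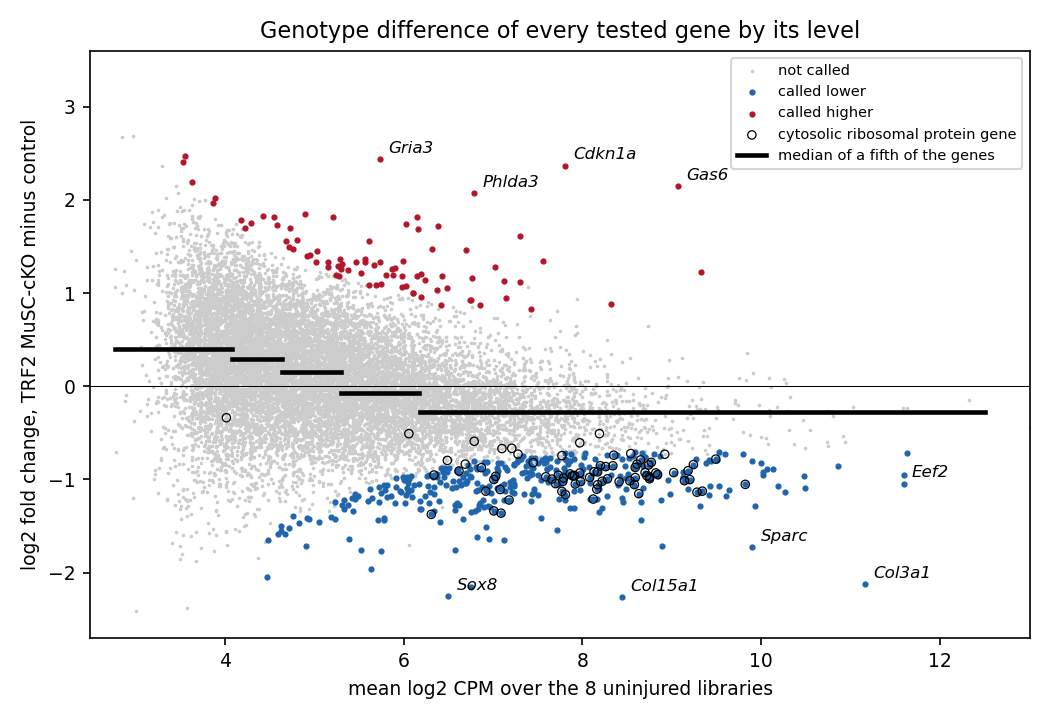
Each point is 1 of the tested genes, with its mean log2 CPM over the 8 uninjured libraries on the x axis and its log2 fold change (TRF2 MuSC-cKO minus control) on the y axis. Genes called lower are blue and genes called higher red, open circles mark cytosolic ribosomal protein genes, and black bars give the median of each of 5 bins of genes, which runs from 0.40 at low CPM to -0.28 at high CPM.

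Terf2, the gene of TRF2, was at 65.9, 88.6, 65.6 and 66.8 CPM in control libraries 1 to 4. In TRF2 MuSC-cKO libraries 1 to 4 it was at 52.0, 47.2, 60.8 and 27.5 CPM, so that the groups did not overlap (exact permutation test of the means, two-sided p = 0.0286, the smallest that 4 against 4 libraries allow). Terf2 was not called (log2 fold change -0.62, SE 0.27, adjusted p = 0.199), and a count per gene does not show whether the reads come from the deleted part. The gene lies at chr8:107069400-107096547 of GRCm38.

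The 5 genes below mark this comparison, each with a larger log2 fold change than Terf2 itself. Cdkn1a encodes p21, an inhibitor of cyclin-dependent kinases, and lies at chr17:29090976-29100727. It was at 89.0, 81.9, 106 and 114 CPM in control and 452, 584, 465 and 511 CPM in TRF2 MuSC-cKO libraries, a wide gap between tight groups (log2 fold change 2.37, SE 0.20, adjusted p = 3.5e-11). Phlda3, an inhibitor of AKT signalling at chr1:135766119-135769136, was at 55.2, 39.7, 55.2 and 63.2 CPM in control and 178, 249, 231 and 237 CPM in TRF2 MuSC-cKO libraries (log2 fold change 2.07, SE 0.22, adjusted p = 9.7e-09). Gas6, a secreted ligand of the TAM receptor kinases at chr8:13465374-13494490, was at 298, 192, 243 and 309.8 CPM in control libraries. Its values in TRF2 MuSC-cKO libraries were 846, 1123, 997 and 1649.8 CPM, and replicate 4 was the highest (log2 fold change 2.15, SE 0.22, adjusted p = 2.6e-09). Col15a1 encodes a collagen of the outer basement membrane and lies at chr4:47208161-47313167. It was at 913, 727, 594 and 869 CPM in control and 122, 113, 188 and 227 CPM in TRF2 MuSC-cKO libraries (log2 fold change -2.26, SE 0.22, adjusted p = 1.5e-09). Sox8, a transcription factor at chr17:25565892-25570686, was at 259, 192, 192 and 191 CPM in control libraries. In TRF2 MuSC-cKO libraries Sox8 was at 12.4, 45.1, 44.5 and 74.1 CPM, lowest in replicate 1 and highest in replicate 4 (log2 fold change -2.25, SE 0.28, adjusted p = 3.7e-06). Cdkn1a, Gas6, Phlda3 and Col15a1 were called under each of 22 alternative fits, and Sox8 under 21 of them.

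**Figure D2:**
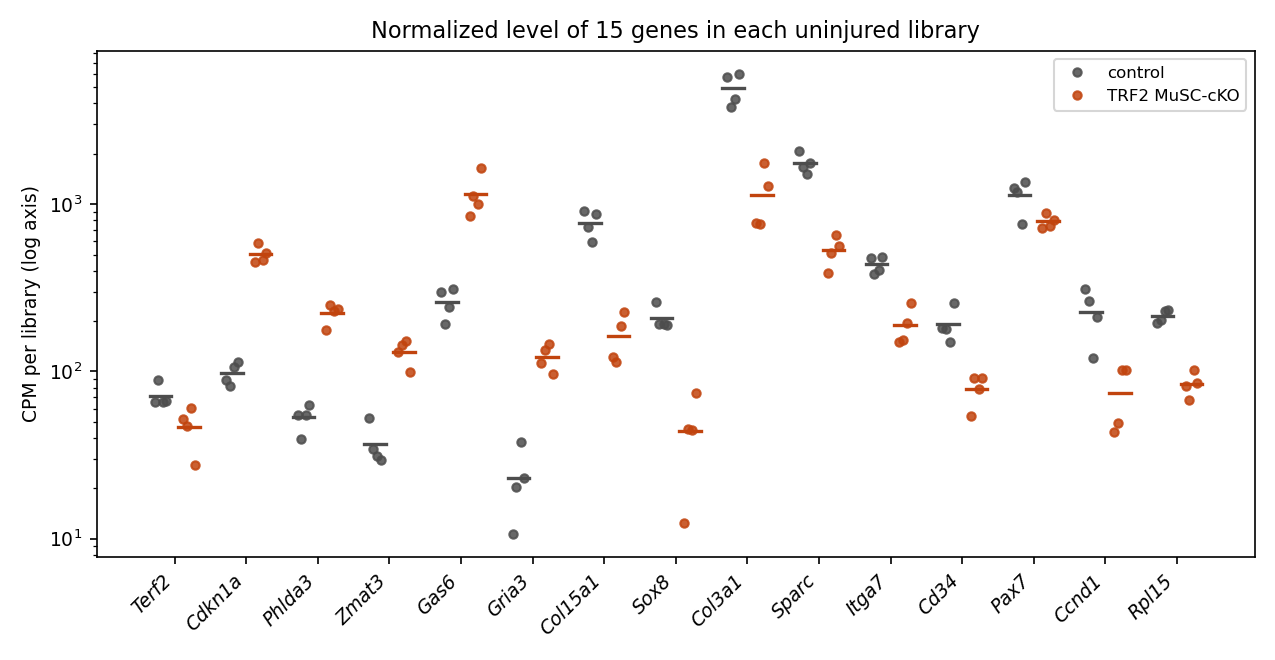
The y axis gives CPM per library on a log axis for 15 genes, with control libraries in grey, TRF2 MuSC-cKO libraries in orange and a bar at each mean of 4 libraries. The groups do not overlap in any of these genes except Pax7.

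Among the lists, p53 targets had the highest median, followed by the 5 tested markers of fibro-adipogenic progenitors (1.09). This order turned with the level trend removed (0.94 and 1.09). Of 28 known p53 targets listed, 26 were tested, 10 were called higher and 0 lower, against 0.584% and 2.63% of all genes, and their median log2 fold change was 1.17 against 0.06 for all genes. The list was chosen with results of these data known. Its libraries did not overlap in 13 members, all of them higher, against 4.98% of all genes higher without overlap. Beside Cdkn1a and Phlda3, the called members were Zmat3, an RNA-binding protein; Aen, a nuclease of cell death; Eda2r, a receptor of the TNF family; Ccng1, a cyclin of p53 feedback; Mdm2, the ligase that degrades p53; Bbc3, the BH3-only protein PUMA; Gdf15, a stress cytokine; and Sesn2, an inhibitor of mTORC1. Zmat3 was at 52.7, 34.6, 31.1 and 29.4 CPM in control and 129.9, 145, 153 and 98.8 CPM in TRF2 MuSC-cKO libraries (log2 fold change 1.82, SE 0.25, adjusted p = 4.4e-06). Eda2r was at 38.7, 31.2, 26.5 and 41.8 CPM in control and 122, 115, 116 and 111 CPM in TRF2 MuSC-cKO libraries, with the smallest spread relative to the mean among p53 targets in the knockout (log2 fold change 1.74, SE 0.25, adjusted p = 8.5e-06). Mdm2 was at 74.1, 62.4, 35.7 and 79.2 CPM in control and 126, 196, 147 and 231 CPM in TRF2 MuSC-cKO libraries (log2 fold change 1.46, SE 0.24, adjusted p = 7.4e-05). The values do not overlap in any of these genes. Ccng1 stood at 36.2, 56.5, 26.5 and 40.1 CPM in control and 103, 169, 156 and 89.2 CPM in TRF2 MuSC-cKO libraries (log2 fold change 1.68, SE 0.26, adjusted p = 3.5e-05). Aen, with a log2 fold change of 1.72 (SE 0.24), was near Zmat3 in size. The death inducer Bbc3 had a log2 fold change of 1.30 (SE 0.29), Sesn2 one of 1.48 (SE 0.38) and Gdf15 one of 1.69 (SE 0.38), the latter on control values of only 7.59 to 19.6 CPM. Members that were not called included other death genes, with values of 1.17 for Pmaip1, 0.76 for Apaf1 and 0.48 for Bax. They also included the repair genes Xpc (-0.22), Ddb2 (-0.12) and Rrm2b (0.08) and the antiproliferative gene Btg2 (0.15). Removal of the level trend left 11 members called higher and a median of 0.94. Leaving out 1 library at a time gave 8 to 10 members called higher. With all 16 libraries in 1 fit 7 were called, and 3 with the rescaled table.

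The Cdkn1a promoter is shown because Cdkn1a had the smallest p of all tested genes and because p53 binding sites have a known form. p53 binds pairs of a unit of 10 bases, searched here by its consensus on both strands with a gap of up to 13 bases between the units. The 250 bases upstream of a Cdkn1a start in RefSeq (GRCm38.p6), at chr17:29090729-29090978 on the plus strand, read as follows, with matches to the unit in capitals.
Cdkn1a: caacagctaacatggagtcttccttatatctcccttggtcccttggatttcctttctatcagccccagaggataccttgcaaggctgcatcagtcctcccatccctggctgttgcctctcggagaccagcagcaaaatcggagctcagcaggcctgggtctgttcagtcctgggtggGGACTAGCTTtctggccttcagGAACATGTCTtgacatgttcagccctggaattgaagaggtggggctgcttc
A pair of units was found in 7 of 13522 promoters of tested genes (250 bases before to 50 after a RefSeq start). A single unit was found in 7.17% of all these promoters, in 10 of 28 promoters of the p53 targets (35.7%), in 12.0% of promoters of genes called higher and in 4.75% of those of genes called lower. A further 3 genes called higher that hold a single unit are shown with it in capitals, in the direction of the gene.
Aen: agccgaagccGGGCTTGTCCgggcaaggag
Ccng1: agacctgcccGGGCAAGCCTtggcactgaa
Ier5: ccccctttaaGAGCTTGCTCcgcgggacta
They lie at chr7:78895927-78895956 on the plus strand, chr11:40755452-40755481 on the minus strand and chr1:155099783-155099812 on the minus strand. Ier5, an immediate early gene, had a log2 fold change of 1.21 (SE 0.30) in TRF2 MuSC-cKO MuSCs and was called, and lost its call in 9 of 22 alternatives. Sbno2, a transcriptional coregulator, and Exoc4, a subunit of the exocyst, also have a unit upstream of their start and were called higher, with log2 fold changes of 1.34 (SE 0.21) and 1.61 (SE 0.20). A match is a description of the sequence and not evidence of binding.

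**Figure D3:**
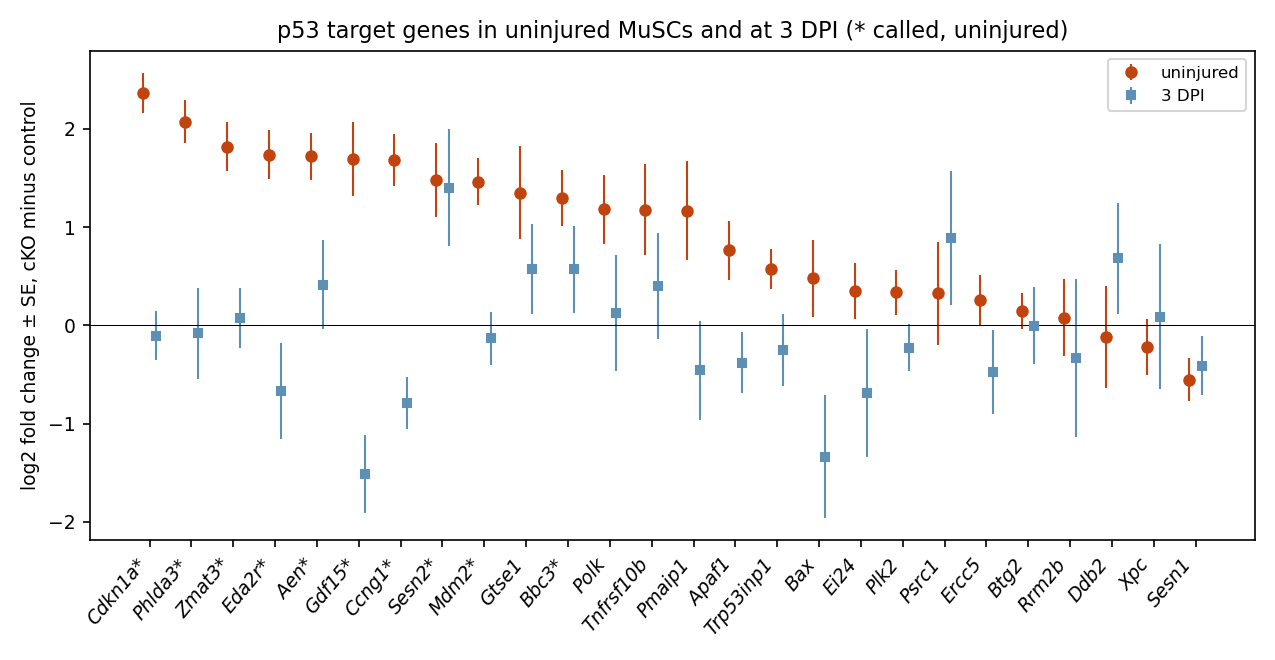
Points give the log2 fold change (libraries labelled TRF2 knockout minus control) of the p53 targets with bars of 1 SE, in uninjured MuSCs (circles) and at 3 DPI (squares). In uninjured MuSCs 23 of 26 estimates lie above 0, from 2.37 for Cdkn1a down to -0.55 for Sesn1, whereas at 3 DPI the median is -0.12.

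Genes that sense and repair DNA breaks did not stand out from the background of 3.22% of genes called, at which less than 1 call falls on a list of this size. Of 23 genes of DNA damage signalling and repair tested, 0 were called by edgeR, and 1 was under an unadjusted p of 0.05 (Rnf8, a ubiquitin ligase recruited to breaks, log2 fold change -0.92, SE 0.38). The kinases Atm and Atr had log2 fold changes of 0.01 (SE 0.22) and 0.24 (SE 0.27), and the repair factor Trp53bp1 one of 0.29 (SE 0.21). The list's median was 0.07. Among 10 genes of shelterin and telomere factors, 0 were called and 2 were under an unadjusted p of 0.05. These were Terf2 and Pot1b, a protein of the telomeric single strand, with a log2 fold change of 0.97 (SE 0.35). Other shelterin genes stood at -0.53 for Terf1, 0.15 for Tinf2, 0.27 for Pot1a, -0.70 for Acd and 0.08 for Terf2ip.

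D-type cyclins were among the called genes of the cell cycle. Of 15 cyclins, kinases and inhibitors of G1 tested, 3 were called lower, namely the D-type cyclins Ccnd3 and Ccnd1 and their kinase Cdk4, against 2.63% of all genes. This list leaves out the inhibitors Cdkn1a, a p53 target that was called higher (2.37), and Cdkn1c, given below. Ccnd3 was at 212, 167, 221 and 212 CPM in control and 50.7, 88.0, 74.1 and 71.4 CPM in TRF2 MuSC-cKO libraries (log2 fold change -1.51, SE 0.22, adjusted p = 8.5e-06). Ccnd1 was at 312, 263, 119.7 and 212 CPM in control and 43.3, 49.3, 102 and 102 CPM in TRF2 MuSC-cKO libraries, with control replicate 3 closest to the knockout (log2 fold change -1.64, SE 0.28, adjusted p = 4.6e-04). Cdk4 had a log2 fold change of -1.32 (SE 0.33). These 3 genes were also called with the level trend removed. Ccnd2 (0.36), Cdk6 (-0.02) and the inhibitors Cdkn1b (-0.45), Cdkn2a (0.57) and Cdkn2b (0.20) were not called. Cdkn1c, the inhibitor p57, is an imprinted gene and fell (log2 fold change -1.25, SE 0.27, adjusted p = 0.00259). None of 20 genes of S phase and none of 14 genes of G2 and mitosis was called by edgeR, with 5 and 1 under an unadjusted p of 0.05. The mitotic kinase Cdk1, at 8.24 to 9.21 CPM in control and 12.4 to 44.5 CPM in TRF2 MuSC-cKO libraries, was that gene of G2 and mitosis and was not called (adjusted p = 0.0672). Among 11 replication histones tested, Hist1h1e, a linker histone, was called lower, from 98.7 to 154 CPM in control to 40.8 to 61.8 CPM in TRF2 MuSC-cKO libraries (log2 fold change -1.34, SE 0.24, adjusted p = 2.8e-04). Of 10 genes of the BCL2 family, 0 were called and 0 had an unadjusted p under 0.05.

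The sorted cells carried the markers of MuSCs in every library of both genotypes, at lower levels in the knockout. Of the 8 genes used to define MuSCs, 6 were called lower, against 2.63% of all genes, and the median was -0.998. Their summed level was 2404 to 3619 CPM in control and 1575 to 2062 CPM in TRF2 MuSC-cKO libraries. In bulk RNA, fewer cells of a type and less RNA per cell cannot be told apart. Pax7 was at 1247, 1181, 761 and 1358 CPM in control and 725, 889.8, 744 and 800.2 CPM in TRF2 MuSC-cKO libraries. It was not called and the groups overlapped, since control replicate 3 was within the range of the knockout (log2 fold change -0.53, SE 0.20, adjusted p = 0.111). Pax7 was called lower in 2 of 22 alternatives, limma's robust fit and the fit without control replicate 3. Its log2 fold change lay from -0.71 to 0.08 over the alternatives. Itga7, the α7-integrin used for sorting, was at 479, 382, 402 and 483 CPM in control and 151, 154, 196 and 258 CPM in TRF2 MuSC-cKO libraries (log2 fold change -1.21, SE 0.20, adjusted p = 1.1e-04). Cd34, a surface sialomucin and sorting marker, was at 183, 181, 149.6 and 256 CPM in control and 54.4, 91.2, 78.6 and 92.0 CPM in TRF2 MuSC-cKO libraries (log2 fold change -1.28, SE 0.22, adjusted p = 1.7e-04). The groups did not overlap in Itga7 and Cd34. Vcam1, an adhesion protein that was also a sorting marker, was at 386, 299, 288 and 298 CPM in control and 148, 166, 168 and 258 CPM in TRF2 MuSC-cKO libraries (log2 fold change -0.78, SE 0.20, adjusted p = 0.0124), and lost its call in 10 of 22 alternative fits. With the level trend removed, 4 of the 8 markers were called lower and the median was -0.60. Leaving out 1 library gave 3 to 8 of them, and 2 were called in the fit of all 16 libraries and 0 with rescaled counts. Of 24 further genes of the MuSC surface and of quiescence, 8 were called lower and 0 higher, against the same share of all genes, with a median of -0.44. The engulfment receptor Megf10 was at 473, 488, 520.1 and 648 CPM in control and 155, 231, 308 and 237 CPM in TRF2 MuSC-cKO libraries (log2 fold change -1.20, SE 0.20, adjusted p = 1.3e-04). Cav1, the coat protein of caveolae, had a log2 fold change of -0.93 (SE 0.20), M-cadherin (Cdh15) one of -0.94 (SE 0.23), the BMP inhibitor Chrdl2 one of -1.08 (SE 0.27) and the tetraspanin Cd82 one of -0.83 (SE 0.19). The number called was 2 to 8 with 1 library left out, and 0 in the fit of all 16 libraries and in the rescaled table. This list was also sensitive to the level trend, with 1 called member and a median of -0.12 after its removal. Nfix, a transcription factor of the nuclear factor I family, was called, and so were the other members Nfia, Nfib and Nfic, which were singled out after their values were seen (-0.73, -0.73, -0.80 and -0.72).

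Matrix genes split into members that fell and members that rose. Of 20 basement membrane genes, 4 were called lower and 0 higher, and of 30 genes of the interstitial matrix 6 were called lower and 2 higher, against 2.63% of all genes called lower and 0.584% called higher. The medians were -0.03 and 0.31. Removal of the level trend left 2 lower and 1 higher in the basement membrane (median 0.19) and 3 lower and 3 higher in the interstitial matrix (median 0.51). In the basement membrane, the called genes beside Col15a1 were Lamc1, the γ1 chain of most laminins, and the collagen IV chains Col4a1 and Col4a2. Lamc1 was at 1322, 1183, 932 and 1249 CPM in control and 424, 478, 585 and 585 CPM in TRF2 MuSC-cKO libraries (log2 fold change -1.18, SE 0.19, adjusted p = 8.2e-05). Col4a1 and Col4a2 had log2 fold changes of -1.07 (SE 0.20) and -0.79 (SE 0.20). Other laminin chains and nidogens stood near 0, with 0.03 for Lamb1, 0.04 for Lamb2, 0.00 for Nid1 and -0.06 for Nid2. Dag1, the dystroglycan that anchors cells to laminin, fell from 1732 to 2582 CPM to 593 to 1216 CPM (log2 fold change -1.09, SE 0.21, adjusted p = 4.9e-04), and lost its call with the level trend removed and with rescaled counts (log2 fold changes from -1.22 to -0.50 over the alternatives).

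Among fibrillar collagens, Col3a1 was at 5799, 3787, 4282 and 6024 CPM in control and 771, 764, 1753 and 1278 CPM in TRF2 MuSC-cKO libraries (log2 fold change -2.13, SE 0.23, adjusted p = 2.9e-08). Col5a2 also fell (-1.24, SE 0.21), whereas Col1a1 and Col1a2, the chains of collagen I, were not called, at 0.30 (SE 0.24) and 0.93 (SE 0.39). Sparc, a collagen-binding glycoprotein, was at 2073, 1671, 1509 and 1755 CPM in control and 387, 513, 657 and 560.0 CPM in TRF2 MuSC-cKO libraries (log2 fold change -1.73, SE 0.20, adjusted p = 7.3e-08). Fibrillin 1 (Fbn1) had a log2 fold change of -1.10 (SE 0.20) and fibulin 2 (Fbln2) one of -1.10 (SE 0.20). In the opposite direction, Col6a3 was at 98.0, 83.5, 79.4 and 68.6 CPM in control and 162, 183, 264 and 196 CPM in TRF2 MuSC-cKO libraries (log2 fold change 1.28, SE 0.21, adjusted p = 1.0e-04), although Col6a1, which codes for another chain of the same collagen, fell (-1.28, SE 0.19). The proteoglycan decorin (Dcn) was at 65.1, 43.9, 26.5 and 57.0 CPM in control and 125, 102, 122 and 98.8 CPM in TRF2 MuSC-cKO libraries (log2 fold change 1.20, SE 0.25, adjusted p = 0.00188). Decorin and Lum are also markers of fibro-adipogenic progenitors, which carry Sca1, a marker on which the sort excluded cells, and whose 8 markers summed to 122 to 159 CPM in control and 243 to 350.0 CPM in TRF2 MuSC-cKO libraries. No marker of that list was at 0 in all 8 libraries, and its part in the rises of Dcn and Col6a3 was not tested. Of 29 genes that process collagen or cut matrix, 4 were called lower and 3 higher, against 2.63% and 0.584% of all genes. With the level trend removed, the counts were 1 lower and 3 higher. With 1 library left out, these were 2 to 5 lower and 1 to 3 higher. The lysyl oxidase-like enzymes Loxl2 and Loxl1 fell (log2 fold changes -1.09 and -1.17) while lysyl oxidase itself (Lox) rose with overlapping groups (1.36, SE 0.35). The collagen chaperone Serpinh1 (-0.87, SE 0.21) and the prolyl hydroxylase subunit P4hb (-0.88, SE 0.21) fell. The gelatinase Mmp2 rose (0.88, SE 0.20), as did the protease inhibitor Serpine2 (1.19, SE 0.25).

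Lists of adhesion receptors and secreted signals held 0 to 3 called genes each, against 3.22% of all genes. Of 20 integrin subunits, Itga7 and Itgb1 fell and Itgb4 rose, with log2 fold changes of -1.21 (SE 0.20), -0.79 (SE 0.20) and 1.19 (SE 0.23). Itgb1 lost its call in 11 of 22 alternatives. The remaining 17 were not called, and the median of the list was 0.52, or 0.30 with the level trend removed. Of the ligands and receptors of the TAM family, Gas6 was the only one called. The receptors Axl, Mertk and Tyro3 had log2 fold changes of -0.11 (SE 0.20), 0.24 (SE 0.36) and 0.68 (SE 0.37), and the ligand Pros1 one of -0.31 (SE 0.33). Of 66 guidance genes of the semaphorin, netrin, slit and ephrin families, 1 was called, the secreted ligand Slit3 at 15.7, 16.0, 13.8 and 24.0 CPM in control and 81.6, 51.4, 7.41 and 65.9 CPM in TRF2 MuSC-cKO libraries. Its groups overlapped, because replicate 3 of the knockout was lowest of all (log2 fold change 1.57, SE 0.41, adjusted p = 0.0173), and it lost its call in 14 of 20 alternatives. Of 48 Wnt pathway genes, 1 was called, the secreted inhibitor Sfrp5 (1.28, SE 0.34), which lost its call in 13 of 22 alternatives. In the TGF-β and BMP pathway, 2 of 42 genes fell, the follistatin-like protein Fstl1 (-1.13, SE 0.20) and the TGF-β carrier Ltbp1 (-0.71, SE 0.19), and the related Ltbp2 rose (1.45, SE 0.34). Ltbp1 lost its call in 14 of 22 alternatives. With 1 library left out, 1 to 6 genes of this list were called lower and 0 to 1 higher. Of 17 heparan sulfate proteoglycans and their enzymes, the glypican Gpc1 fell (-0.93, SE 0.22) and the sulfatase Sulf2, which was at 76.7, 81.8, 75.6 and 23.3 CPM in TRF2 MuSC-cKO libraries, was called higher with overlapping groups (1.24, SE 0.33). Gpc1 lost its call in 9 of 22 alternatives and Sulf2 in 12 of 22. None of 29 genes of FGF signalling and its feedback and none of 10 listed Hedgehog genes was called by edgeR. At an unadjusted p under 0.05 there were 6 and 2, with -0.80 for the FGF target Etv5 (adjusted p = 0.0327) as the smallest p. The Hedgehog list leaves out Gas1, a surface protein of Hedgehog signalling that was called lower (-1.72, SE 0.22).

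Of the lists examined, that of cytosolic ribosomal proteins held the most called genes. All 76 were tested, and 61 were called lower and 0 higher, against 2.63% and 0.584% of all genes. All 76 estimates were below 0, from -1.38 to -0.34, against 6462 of 14048 over all genes. These 76 genes took 2.67 to 3.06% of the counts in control and 1.22 to 1.97% in TRF2 MuSC-cKO libraries, without overlap. The list has a median log2 fold change of -0.96, against -0.28 for all genes in the bin of highest CPM. After removal of the level trend its median was -0.56 and 12 members were called lower, and with library size alone 51 were. Leaving out 1 library at a time gave 43 to 65 of the 76, and 13 were called in the fit of all 16 libraries and 2 with rescaled counts. Rpl15, a protein of the large subunit, was at 195, 204, 230.1 and 232 CPM in control and 81.6, 67.1, 102 and 85.1 CPM in TRF2 MuSC-cKO libraries (log2 fold change -1.36, SE 0.21, adjusted p = 2.9e-05). Rpl37a was at 164, 170.4, 205 and 283 CPM in control and 58.1, 70.2, 102 and 96.1 CPM in TRF2 MuSC-cKO libraries (log2 fold change -1.34, SE 0.23, adjusted p = 1.2e-04). The groups were separate in 65 of the 76 genes, against 6.64% of all genes lower without overlap. Reads of these genes can also match their many pseudogenes, so their counts are uncertain as single values. Of 44 mitochondrial ribosomal proteins tested, 0 were called by edgeR and 4 had an unadjusted p under 0.05, with a median of -0.17. With the level trend removed, this median was -0.47, near the -0.56 of the cytosolic list, and 1 member was called lower. The difference between both lists was not tested.

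Among 60 factors of translation initiation and elongation tested, 12 fell and 0 rose, against 2.63% and 0.584% of all genes, and 49 of 60 estimates were below 0, against 6462 of 14048 over all genes, with a median of -0.50. The elongation factor Eef2, among the called genes of highest CPM, was at 4412, 4071, 4108 and 5453 CPM in control and 1551, 2317, 1922 and 2948 CPM in TRF2 MuSC-cKO libraries (log2 fold change -1.05, SE 0.20, adjusted p = 5.4e-04). Eef1a1, which brings transfer RNA to the ribosome, was at 4449.7, 4066, 3998 and 4878 CPM in control and 1507, 2304, 2219 and 2963 CPM in TRF2 MuSC-cKO libraries (log2 fold change -0.95, SE 0.20, adjusted p = 0.00151). Both elongation factors lost their calls with the level trend removed and with rescaled counts, and over the alternatives their log2 fold changes lay from -1.24 to -0.43 for Eef2 and from -1.13 to -0.34 for Eef1a1. Called initiation factors were Eif5a, Eif4a1, Eif4b and the eIF3 subunits Eif3e, Eif3f, Eif3h, Eif3k and Eif3l, with log2 fold changes from -1.17 to -0.87. Removal of the level trend left 4 of the 60 called, and leaving out 1 library gave 7 to 16. The kinases and binding proteins that restrain initiation were not called, with -0.18 for Eif2ak3, -0.38 for Eif2ak4 and -0.16 for Eif4ebp1.

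Transcripts of this machinery commonly begin with a run of pyrimidines, and this sequence is shown because most ribosomal protein promoters held it. A run of C followed by at least 7 further C or T bases was searched on the gene's strand from 20 bases before the RefSeq start to 50 after it. It was found in 20.1% of promoters of all tested genes, in 71.2% of those of ribosomal protein genes, and in 29.7% of those of genes called lower. Without ribosomal protein genes the share among genes called lower was 22.4%. The runs of 4 genes that fell are given in capitals, in the direction of the gene.
Rpl31: tcgccacaCCTCTTCCTCCTCgcctccccg
Rpl37a: cattgcgtCCCTTCCTCTTCggacttgggc
Rpl15: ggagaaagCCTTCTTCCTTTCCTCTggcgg
Eef1a1: tggctccgCCCTCTTCCCgagggtggggga
They lie at chr1:39367825-39367854 and chr1:72711276-72711305 on the plus strand and at chr14:18270969-18270998 and chr9:78481708-78481737 on the minus strand of GRCm38.p6. Counted from the RefSeq start, the stretches shown for Rpl31, Rpl37a, Rpl15 and Eef1a1 begin at -26, 16, -12 and -13. The runs of Rpl31 and Rpl37a therefore do not lie at that start.

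**Figure D4:**
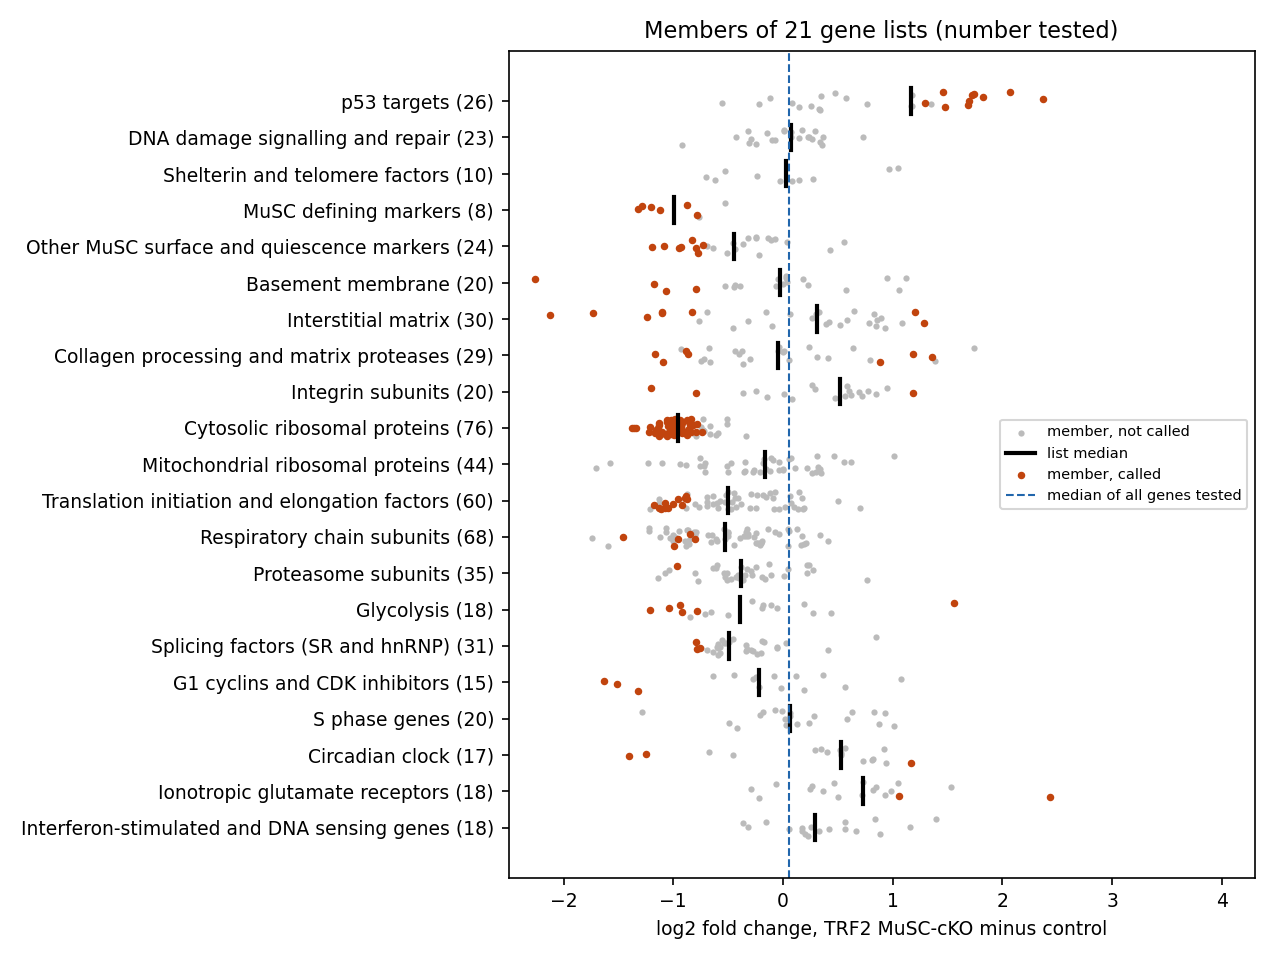
Each row is a gene list with the number of genes tested in parentheses, each point a member by its log2 fold change on the x axis, orange where called, with a black bar at the list median and a dashed line at the median of all genes, 0.06. The median of the p53 targets lies to the right, and those of the cytosolic ribosomal proteins and MuSC markers to the left of that line.

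Lists of energy metabolism, protein turnover and splicing had medians below 0. Of 18 glycolysis genes, 5 were called lower, Aldoa, Hk1, Gapdh, Ldha and Pkm, with log2 fold changes from -1.21 to -0.78. This is 27.8% of the list against 2.63% of all genes, and 2 members were called lower with the level trend removed and 2 to 6 with 1 library left out. The glucose transporter Slc2a1 rose, from 34.6, 17.7, 27.6 and 32.9 CPM in control to 132, 74.4, 77.1 and 49.4 CPM in TRF2 MuSC-cKO libraries (log2 fold change 1.56, SE 0.30, adjusted p = 7.2e-04). Of 68 subunits of the respiratory chain, 5 were called lower, among them the ATP synthase subunits Atp5b (-0.84, SE 0.19) and Atp5a1 (-0.80, SE 0.19), and the median was -0.53. That median did not move towards 0 with the level trend removed (-0.72, 2 called), and leaving out 1 library gave 0 to 5 called. The deposited counts held 0 genes named as genes of the mitochondrial genome, so these could not be analysed. Of 35 proteasome subunits 1 was called (Psmd3, -0.96, SE 0.24; list median -0.38; call lost in 13 of 22 alternatives), and of 27 lysosomal genes 3, the cathepsins Ctsl, Ctsa and Ctsb (log2 fold changes -1.09, -1.05 and -0.78). With 1 library left out, 0 to 3 lysosomal genes were called lower, and 1 with the level trend removed. Of 31 splicing factors 3 were called lower, Hnrnpk, Hnrnpa0 and Hnrnpab, and 28 of 31 estimates were below 0. Leaving out 1 library gave 0 to 6 called, and Hnrnpk and Hnrnpa0 lost their calls in 11 of 22 and 15 of 22 alternatives. Removal of the level trend left 0 called, and the median moved from -0.49 to -0.12.

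The circadian clock showed calls in both directions. Arntl encodes BMAL1 and Npas2 a paralog of CLOCK, which together activate clock genes, and Per2 is a repressor of these activators. Arntl was at 62.6, 49.8, 61.0 and 56.1 CPM in control and 32.2, 10.5, 25.2 and 19.2 CPM in TRF2 MuSC-cKO libraries (log2 fold change -1.41, SE 0.34, adjusted p = 0.00657). Npas2 was at 119, 121, 73.6 and 90.8 CPM in control and 58.1, 28.3, 62.3 and 23.3 CPM in TRF2 MuSC-cKO libraries (log2 fold change -1.25, SE 0.28, adjusted p = 0.00351). Per2 went the other way, at 79.1, 82.7, 51.8 and 73.0 CPM in control and 194, 145, 138 and 169 CPM in TRF2 MuSC-cKO libraries (log2 fold change 1.16, SE 0.22, adjusted p = 4.9e-04). The groups were separate in all 3 genes. The remaining 14 of 17 clock genes were not called, where 3.22% of all genes were called in either direction, with 0.94 for Dbp, 0.92 for Cry1, 0.53 for Per3 and -0.67 for Clock. With the level trend removed, 2 clock genes were called lower and 6 higher. Leaving out 1 library gave 0 to 2 lower, and scaling by library size alone 0. The hour at which mice were killed is not given for these libraries, so genotype and time of day cannot be told apart here.

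Immediate early genes respond within minutes to stimuli, tissue handling included. Of 24 such genes, 3 were called lower and 1 higher, or 1 lower and 3 higher with the level trend removed. Over all genes, 2.63% were called lower and 0.584% higher, which also applies to the lists that follow. Cyr61, a matricellular protein, was at 319.6, 364, 325 and 356 CPM in control and 134, 122, 147 and 184 CPM in TRF2 MuSC-cKO libraries (log2 fold change -1.22, SE 0.20, adjusted p = 5.3e-05). The phosphatase Dusp1 (-0.95, SE 0.20) and the receptor Nr4a1 (-0.83, SE 0.19) fell. The transcription factor Fos, counted in no list, had 3819 to 4659 CPM in control and 2071 to 2945 CPM in TRF2 MuSC-cKO libraries (log2 fold change -0.72, SE 0.19, adjusted p = 0.0145), and lost its call in 12 of 22 alternative fits. Jun (-0.15), Junb (-0.24), Atf3 (0.18) and Egr1 (-0.45) were not called. Of 14 targets of glucocorticoids and FOXO, 3 fell, and with the level trend removed 1 was lower and 2 were higher. Ddit4, an inhibitor of mTORC1, was at 335, 293, 349.8 and 475 CPM in control and 99.0, 95.4, 156 and 151 CPM in TRF2 MuSC-cKO libraries (log2 fold change -1.54, SE 0.21, adjusted p = 3.7e-06). Tsc22d3, known as GILZ, had a log2 fold change of -1.11 (SE 0.22) and the metallothionein Mt2 one of -1.03 (SE 0.21). Of 16 heat shock proteins, the small chaperone Cryab fell (-1.25, SE 0.25), and with the level trend removed 1 was lower and 2 were higher. None of 16 genes of the integrated stress and unfolded protein responses was called by edgeR, and 4 had an unadjusted p under 0.05.

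Of 21 imprinted genes tested, 4 were called lower and 0 higher, against 2.63% of all genes called lower and 0.584% called higher, with a median of -0.28. Removal of the level trend left 2 called and a median of -0.11, and leaving out 1 library gave 2 to 5. Meg3 and Rian are noncoding RNAs of the imprinted Dlk1-Dio3 region on chromosome 12. Meg3, at chr12:109541001-109571726, was at 1972, 1908, 1368 and 2069 CPM in control and 784, 742, 968 and 835 CPM in TRF2 MuSC-cKO libraries (log2 fold change -1.14, SE 0.19, adjusted p = 1.2e-04). Rian, at chr12:109603940-109661716, was at 513, 333, 359 and 327 CPM in control and 126, 165, 208 and 122 CPM in TRF2 MuSC-cKO libraries (log2 fold change -1.31, SE 0.21, adjusted p = 5.3e-05). Meg3 lost its call with the level trend removed and with rescaled counts, and Rian in the fit of all 16 libraries and with rescaled counts. Mirg, a neighbouring noncoding RNA, was not called (-0.28, SE 0.45), nor was the coding gene Dlk1 (0.42, SE 0.33). Gnas, the stimulatory G protein subunit, fell by 0.86 on the log2 scale (SE 0.20), and lost its call in 8 of 22 alternatives, with log2 fold changes from -0.98 to -0.24.

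Beyond the lists, the rule of largest change added genes of several kinds. Otoa, a surface glycoprotein known from the inner ear, was at 251, 188, 192 and 275 CPM in control and 50.7, 47.2, 34.1 and 71.4 CPM in TRF2 MuSC-cKO libraries (log2 fold change -2.15, SE 0.23, adjusted p = 1.4e-08). Gas1, a surface protein of growth arrest and Hedgehog signalling, was at 708, 711, 859.5 and 1242 CPM in control and 217, 198, 316 and 342 CPM in TRF2 MuSC-cKO libraries (log2 fold change -1.72, SE 0.22, adjusted p = 5.2e-07). C1qtnf3, a secreted protein, had a log2 fold change of -1.97 (SE 0.29), the arrestin-related Arrdc2 one of -1.76 (SE 0.25), the neuropeptide galanin (Gal) one of -1.71 (SE 0.37) and the muscle regulator Myog one of -2.04 (SE 0.44). Among rises, Gria3, a subunit of AMPA-type glutamate receptors on the X chromosome, was at 10.7, 20.3, 38.0 and 23.2 CPM in control and 113, 134, 145 and 96.1 CPM in TRF2 MuSC-cKO libraries (log2 fold change 2.43, SE 0.29, adjusted p = 1.7e-07). Of 18 subunits of ionotropic glutamate receptors, Gria3 and Grik3 (1.05, SE 0.23) were called higher, and the median of the list was 0.73, or 0.47 with the level trend removed. Over all genes, 0.584% were called higher and 2.63% lower, which also applies to the channel and sarcomere genes below. Of 102 potassium, calcium and sodium channel genes, 3 were called higher (Kcna2, Cacna1b and Scn4a), and the median was 0.45, or 0.27 with 4 called with the level trend removed. Kcna2 and Cacna1b lost their calls in 14 of 22 and 15 of 22 alternatives. Fat1, a protocadherin, was at 445, 435, 392 and 406 CPM in control and 753, 1137, 864 and 1164 CPM in TRF2 MuSC-cKO libraries (log2 fold change 1.22, SE 0.19, adjusted p = 4.9e-05). The surface protein Cd109 (1.85, SE 0.37) and the adenylate kinase Ak1 (1.82, SE 0.36) also rose. Of 18 sarcomere genes tested, Actn3 fell (-1.76, SE 0.30) and Neb rose (1.11, SE 0.22).

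Lists of inflammation held 0 called genes, near the 3.22% of all genes for lists of this size. Of 18 interferon-stimulated and DNA sensing genes tested by edgeR, 0 were called, 2 had an unadjusted p under 0.05 with a higher value, and the median was 0.29. The 29 listed genes summed to 437 to 544 CPM in control and 583 to 619.5 CPM in TRF2 MuSC-cKO libraries, without overlap, and 15 of 18 estimates were above 0. That median was 0.15 with the level trend removed. Oas2, an antiviral enzyme, had the smallest p of this list (1.15, SE 0.45, adjusted p = 0.136). Of 13 genes of class I antigen presentation and 8 chemokines tested, 0 were called, and 1 and 1 had an unadjusted p under 0.05. Summed levels of markers of some other cell types were higher in the knockout, and their part in the results was not tested. The 12 macrophage markers summed to 83.2 to 124 CPM in control and 148 to 188 CPM in TRF2 MuSC-cKO libraries, and the 7 Schwann cell markers to 229 to 315 and 371 to 519.5 CPM. None of 7 macrophage and 5 Schwann cell markers tested was called by edgeR, with 1 and 3 under an unadjusted p of 0.05. Of the Schwann cell markers, 2 were called higher with the level trend removed and 1 with library size alone. Of the macrophage markers, 0 were called in both alternatives. The medians of the macrophage and Schwann cell lists were 0.61 and 0.65, or 0.20 and 0.80 with the level trend removed. The 9 endothelial markers summed to 386 to 558 and 325 to 567 CPM and the 8 lymphocyte markers to 35.6 to 63.3 and 43.0 to 69.3 CPM, with overlap. The 8 markers of smooth muscle and pericytes summed to 877 to 1255 and 803 to 1849 CPM, and 2 of them, Rgs5 (1.33, SE 0.35) and Cspg4 (0.88, SE 0.23), were called higher with overlapping groups and lost their calls in 14 of 22 and 13 of 22 alternatives. The background receptor genes, which lie at a few CPM each, summed to 2395 to 4649 CPM in control and 4380.0 to 5592 CPM in TRF2 MuSC-cKO libraries. Among the lists of other cell types, 1 erythroid marker was at 0 in all 8 libraries.

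**Figure D5:**
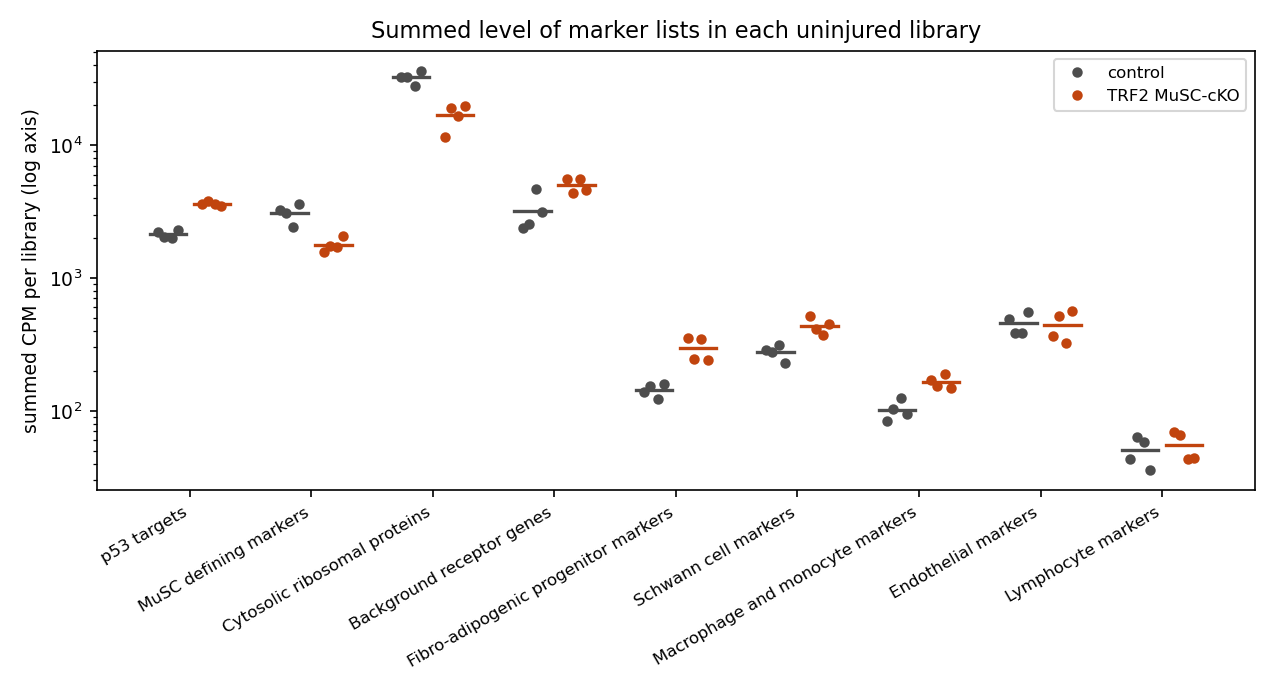
The y axis gives the summed CPM of all genes of a list per library on a log axis, control libraries in grey and TRF2 MuSC-cKO libraries in orange, with a bar at the mean of 4 libraries. The p53 targets (2001 to 2277 against 3503 to 3806 CPM) and the markers of fibro-adipogenic progenitors, Schwann cells and macrophages are higher in each knockout library than in each control library, and the ribosomal protein and MuSC lists are lower.

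TRF2 is known to bind nucleic acids folded into G-quadruplexes, which form from runs of guanine, so the same promoter windows were searched for 4 runs of at least GGG separated by 1 to 7 bases, on both strands. Such a motif was found in 28.2% of promoters of all tested genes, in 32.0% of those of genes called lower and in 31.5% of those of genes called higher. Among genes called lower without ribosomal proteins the share was 35.9%, and among ribosomal protein genes 12.1%. Promoters of tested and called-lower genes had median GC contents of 60.3% and 61.0%. These shares are descriptions without a test. The motifs of 3 genes are shown in capitals in the direction of the gene, because Sdc4 and Calcr fell and Phlda3 rose; in Phlda3 the runs lie on the other strand and read as runs of C.
Sdc4: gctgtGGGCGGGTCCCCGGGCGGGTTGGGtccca
Calcr: gcgcaGGGAGGGTCCGGGCGGGGccggc
Phlda3: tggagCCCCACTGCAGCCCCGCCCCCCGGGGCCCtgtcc
They lie at chr2:164443326-164443359 and chr6:3763739-3763766 on the minus strand and at chr1:135766013-135766051 on the plus strand. The proteoglycan Sdc4 had a log2 fold change of -0.88 (SE 0.20) and the calcitonin receptor Calcr one of -1.32 (SE 0.24). Genes called lower had a median span of 16.7 kb against 26.7 kb for all tested genes and 43.3 kb for genes called higher. Without ribosomal protein genes the median span of genes called lower was 23.4 kb.

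At 3 DPI the same genotype comparison called 0 of 14559 genes with edgeR, 17 lower and 5 higher with DESeq2, and 0 lower and 1 higher with limma's robust fit, and 1362 genes had an unadjusted p under 0.05 in edgeR. No library is shared with the uninjured comparison, but some JH numbers occur in both injury states, and another occurs in both genotypes at 3 DPI. The fits did not model these numbers. Terf2 was at 38.0, 51.2, 50.3 and 44.9 CPM in 3 DPI control libraries and at 56.0, 23.8, 75.3 and 96.3 CPM in those labelled TRF2 knockout, so 3 of the latter 4 were above every control library and their label is used as given. Of 369 genes called lower in uninjured MuSCs and tested at 3 DPI, 321 (87.0%) had a lower estimate there too, with a median log2 fold change of -0.56 against -1.02 in uninjured MuSCs. Of 81 called higher, 48 (59.3%) had a higher estimate at 3 DPI, with a median of 0.15 against 1.33. Over all genes tested in both, 63.3% had the same sign.

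The difference between both genotype effects was tested as an interaction over all 16 libraries, and 3 of 16822 genes passed (0.0178%). Cdkn1a was at 132, 139, 221 and 155 CPM in control libraries and 147, 131, 183 and 143 CPM in libraries labelled TRF2 knockout at 3 DPI, so the genotypes overlapped there. The difference between the labelled genotypes was lower at 3 DPI than in uninjured MuSCs (interaction -2.40, SE 0.32, edgeR adjusted p = 9.4e-04), also in each of 16 fits that left out 1 library. Gas6 was at 217, 243, 231 and 224 CPM and 247, 264, 269 and 218 CPM in the same libraries (interaction -1.95, SE 0.32, edgeR adjusted p = 0.0181). Ccng1 was at 92.5, 102, 107 and 104 CPM and 51.1, 59.0, 60.0 and 63.8 CPM, lower in each library labelled TRF2 knockout than in each control library (interaction -2.40, SE 0.41, edgeR adjusted p = 0.0181). Gas6 and Ccng1 passed in 3 of the 16 fits that left out 1 library, with adjusted p-values up to 0.0843 and 0.0824. Gdf15 had an interaction of -3.11 (SE 0.54) and did not pass (edgeR adjusted p = 0.0226). Among genes called lower, 0 of 370 passed this test with edgeR and 98 had an unadjusted p under 0.05. Among genes called higher, 3 of 82 passed and 43 had an unadjusted p under 0.05. Over all genes of the uninjured comparison with this test, 840 of 14041 did. Both called sets were chosen on uninjured values that also enter the interaction. Col15a1 had an interaction of 1.77 (SE 0.34, edgeR adjusted p = 0.0635).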

How the data were processed

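Genome-wide RNA was measured in sorted MuSCs, 4 libraries per genotype in uninjured muscle. The authors trimmed reads with Trim Galore 0.6.7, aligned them to GRCm38 with STAR (2.6.1d in the submitters' processing notes) and quantified them with Salmon 1.5.2. They deposited expected (estimated) counts per gene for 24411 genes, not normalized and not pooled over replicates, and a second table of estimated counts rescaled by transcript abundance, used here as an alternative. The release of the annotation and the use of the kit's molecular identifiers to collapse reads are not given in the sources used here, so p-values do not cover duplicate reads. Transcripts of near-identical copies and overlapping genes may have shared reads.

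After rounding, edgeR 4.0.16 (R 4.3.3) was run with its filterByExpr filter, TMM factors and robust quasi-likelihood fit on the 8 uninjured libraries, without covariates, with Benjamini-Hochberg adjustment over all genes tested. Calls needed an adjusted p under 0.02 together with a fold change over 1.5, and SE is the log2 fold change divided by the square root of the test statistic. A prior count of 2 entered log2 CPM. The biological coefficient of variation was 0.297. The procedure was tested on simulated data. Positions come from GENCODE M21 (GRCm38), which matched 23334 gene symbols (95.59%), and promoters from RefSeq (GRCm38.p6), which held 10542 of the tested genes.

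Lists are described by the number of members called and their median, without a test. The 58 lists, the genes in them and the thresholds were chosen with earlier results of these data known. Named genes are Terf2; the 5 marker genes; the MuSC markers; the 12 called genes of largest fall and of largest rise whose groups do not overlap and whose mean log2 CPM reaches 4; the 8 called of highest CPM in each direction; in each list the 2 called of smallest p in each direction, or the member of smallest p; and the 5 called genes of smallest interaction p. Other members of a list are named to describe it, and genes singled out later are marked so. Alternatives were limma 3.58.1 (robust fit and voom), DESeq2 1.42.0, other size factors, other filters, thinned counts, the rescaled table, all 16 libraries in 1 fit, a replicate block, removal of trends with length or level, and leaving out each library. No pair of replicates agreed within sampling noise (chi-square at least 3.32 times its expectation).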

Additional observations from a re-analysis of the deposited data

Results flagged for a closer look

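In 10 named genes, 1 library of a group of 4 stood apart from the other 3 by Dixon's criterion at 95%, which flags about 1 in 20 groups by chance, and 126 genes were examined in both genotypes. Control replicate 2 held the highest Terf2 (88.6 CPM, the others 65.6 to 66.8 CPM) and the lowest Ccnd3 (167 CPM, the others 212 to 221 CPM). Control replicate 1 was highest for Sox8 (259 CPM against 190.5 to 192 CPM), Vcam1 (386 CPM against 288 to 299 CPM) and Hnrnpk (381 CPM against 315 to 322 CPM). Control replicate 3 was lowest for Cav1 (239 CPM against 327 to 336 CPM), Mcl1 (288 CPM against 342 to 353 CPM) and Hk1 (283 CPM against 414 to 447 CPM). Replicate 4 of the knockout was lowest for Pot1b (28.8 CPM against 45.9 to 48.2 CPM) and Sulf2 (23.3 CPM against 75.6 to 81.8 CPM).

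The difference between libraries labelled TRF2 knockout and control differed between injury states, by the interaction term of edgeR, for 3 genes. Relative to uninjured MuSCs, this difference at 3 DPI was lower on the log2 scale by -2.40 for Cdkn1a (2.37 in uninjured MuSCs and -0.11 at 3 DPI), by -1.95 for Gas6 (2.15 and 0.12) and by -2.40 for Ccng1 (1.68 and -0.79). With 1 library left out at a time, Cdkn1a passed in all 16 fits and Gas6 and Ccng1 in 3 of 16. In 3 of the 4 libraries labelled TRF2 knockout at 3 DPI, Terf2 was above every control library of that state.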

How the results depend on the processing

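All 452 called genes that an alternative tested kept their sign in it. The number of genes called lower, 370, and higher, 82, moved most with the data pooled or rescaled. All 16 libraries in 1 fit called 70 lower and 12 higher, and 11 were called lower and 6 called higher in the rescaled table. Library size alone gave 212 lower and 176 higher, and removal of the level trend, chosen after seeing the data, 138 lower and 118 higher. At least 10 counts in every library left 8869 genes and 190 calls higher, limma's robust fit gave 151, and 182 genes were called higher at an adjusted p under 0.05 without a minimum fold change. With 1 library left out at a time, 214 to 488 genes were lower, most without control replicate 3 and fewest without control replicate 1, and 40 to 86 higher, most without control replicate 3 and fewest without control replicate 2. Of these fits, those without control replicates 1, 2 or 4 or knockout replicate 1 moved both counts by over 1.5 times, and that without knockout replicate 3 the higher count. Without replicate 4 of both genotypes, which carry another JH number in their descriptions than replicates 1 to 3, 172 were lower and 28 higher. The cause of these differences was not tested. The replicate numbers do not pair the libraries: same-numbered deviations from the group means correlated at -0.09, 0.12, 0.05 and 0.04, and a replicate block gave 448 lower and 88 higher. The interaction, 3 genes as reported, gave 24 with DESeq2, 0 with a replicate block (Cdkn1a, adjusted p = 0.0276) and 1 to 13 with 1 library left out, the most without the 3 DPI library labelled TRF2 knockout replicate 3. The exact permutation p of Terf2 was 0.0286 on both the CPM and the log2 CPM scale. Among 126 named genes, 464 alternative values lost their call, 33 gained one, and 2378 did neither. The estimates of Pax7, Mcl1 and Hba-a1, which were not called, crossed 0 among the alternatives. Depth limits genes at a few CPM, where 1 CPM is about 1 read.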
